A study of Saccharomyces cerevisiae with 16 samples.

Results

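The outer 30 kb of the yeast chromosomes held 971 of the 30753 H3K4me3 peaks listed for the series. Members were chosen by position alone: every listed peak on chromosomes I to XVI whose summit lay within 30 kb of either end of a sacCer3 chromosome. The 32 ends make up 960 kb, or 7.95% of nuclear bases, and contributed 2.87 to 3.41% of the native peaks of each library. The other 29142 native peaks, called interior here, served as the comparison.

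Trimethylation of lysine 4 of histone H3 (H3K4me3) is laid down by the COMPASS complex behind initiating RNA polymerase II, so that in budding yeast it lies at the 5′ ends of transcribed genes. The chromosome ends are known for a different chromatin. Proteins bound to the telomere repeats recruit the Sir silencing complex, which spreads inward over deacetylated nucleosomes, and the adjoining subtelomeres hold repeated elements (X and Y′) and gene families for uses that laboratory medium rarely calls for, such as maltose, cell wall mannoproteins and flocculation. A few ordinary genes lie among them.

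The libraries were made by CUT&RUN (the sample titles say ChIP), where a nuclease tethered by the antibody cuts out the bound chromatin, on nuclei of BY4741, a haploid laboratory strain of mating type a. All strains carried synthetic DNA: the human HPRT1 locus or its reversed sequence HPRT1R, carried on a yeast artificial chromosome (YAC) in some strains and integrated on chromosome XI in others. There were 4 groups (HPRT1 YAC, HPRT1 integrated, HPRT1R YAC and HPRT1R integrated) of 2 H3K4me3 libraries each; the 8 IgG libraries were not analysed here, so that background at chromosome ends was not measured. The YAC strains were grown in SC-Leu, a synthetic medium without leucine, the integrated ones in YPD, a rich medium, all at 30 °C to an optical density of about 0.6. Configuration and medium therefore cannot be told apart.

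Near-end peaks numbered 135 and 128 with HPRT1 on the YAC and 123 and 113 with HPRT1 integrated. With HPRT1R on the YAC there were 97 and 130, and with HPRT1R integrated 128 and 117. HPRT1R YAC replicate 1 stood lowest, and it also had the fewest native peaks (3377, against up to 3963). In HPRT1 YAC replicate 2 the cell line entry names HPRT1R while the title names HPRT1; it was kept under its title. The tests were repeated without each library in turn, and neither of these changed a call. Read totals are not part of peak lists. The pileup of reads that the peak caller expected genome-wide, which could be recovered from the fold and the p-value, was 76.2 to 98.9 reads, and counts of about that size limit how precisely a fold is known.

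Peaks were far sparser at chromosome ends than elsewhere. The near-end zone held 1.26 ± 0.127 peaks per 10 kb (SD, n = 8) and the interior 3.28 ± 0.17 (SD, n = 8), a ratio of 0.386. The ratio lay between 0.342 and 0.408 in the single libraries. Near-end density was lower in 8 of 8 libraries, by 2.01 peaks per 10 kb (SD of the difference 0.0692; exact two-sided sign-flip permutation test, p = 0.00781, the smallest that 8 libraries allow; adjusted p = 0.00781 over 8 tests). Peaks covered 7.7% ± 0.596 of near-end bases and 25.7% ± 1.27 of interior bases (SD, n = 8 each; exact sign-flip permutation p = 0.00781, adjusted p = 0.00781). The libraries measure the same chromosomes again, and the labels do not call the replicates separate cultures, so that these p-values measure only the spread between libraries, which may be technical.

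The difference was also present per gene. There were 377 protein-coding genes with a start in the near-end zone and 5625 in the interior. The near-end zone had 0.322 ± 0.0322 summits per gene and the interior 0.648 ± 0.0337 (SD, n = 8 each; lower in 8 of 8 libraries, exact sign-flip permutation p = 0.00781, adjusted p = 0.00781).

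The density rose with distance from the end, with steps of similar size at about 20 and 35 kb. Within 5 kb of the end the libraries had 0 to 15 peaks over the 32 ends, or 0.547 ± 0.273 per 10 kb (SD, n = 8). The next bins of 5 kb held 0.898 ± 0.149, 0.797 ± 0.141 and 0.992 ± 0.143 per 10 kb, so that the density changed little between 5 and 20 kb. From 20 to 25 kb it was 2 ± 0.177 and from 25 to 30 kb 2.35 ± 0.12. Genes were about as dense in these bins (4.5 and 4.31 starts per 10 kb) as from 5 to 15 kb (4.62 and 4.31). They were sparser from 15 to 20 kb (3.38) and within 5 kb of the end (2.44), so that gene density also rose at 20 kb. Peak density from 30 kb on was as follows. It was 2.12 ± 0.265 from 30 to 35 kb and 3.17 ± 0.236 from 35 to 40 kb (SD, n = 8 for each bin), the latter near the interior value. The outer 10 kb had a lower density than the stretch from 10 to 30 kb in 8 of 8 libraries (0.723 ± 0.186 against 1.54 ± 0.109 per 10 kb, SD, n = 8; exact sign-flip permutation p = 0.00781, adjusted p = 0.00781).

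**Figure D1:**
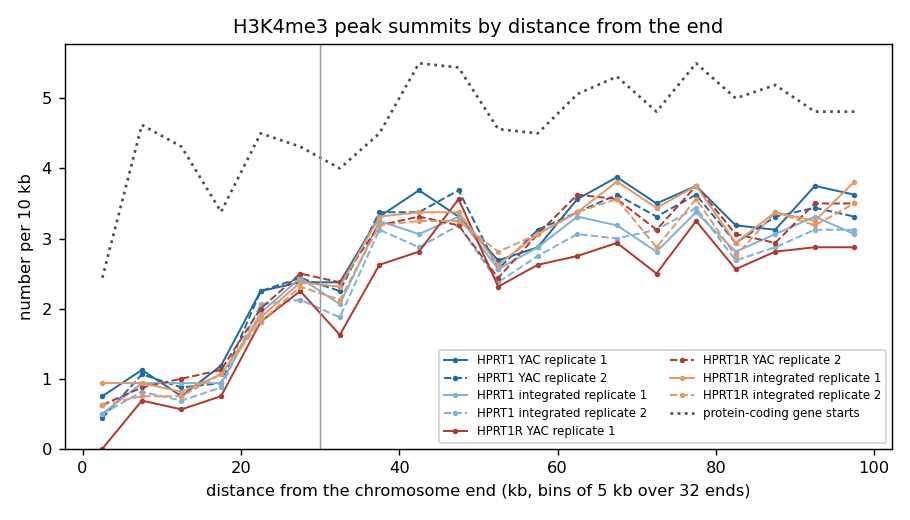
Number of H3K4me3 peak summits per 10 kb (y axis) by distance from the chromosome end (x axis, kb), in bins of 5 kb pooled over 32 ends, 1 line per library, with protein-coding gene starts as a dotted line and the 30 kb limit as a vertical line. All 8 lines run below 1.2 per 10 kb up to 20 kb and average 3.17 from 35 to 40 kb. Gene starts reach 4.62 per 10 kb already between 5 and 10 kb and dip to 3.38 from 15 to 20 kb.

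The 30 kb limit cut through 1 place on V right and 1 on XIII left. On XIII left (29085 to 30991) the summit lay just inside in the HPRT1R YAC libraries and just outside in the others. V right held the peaks closest to the limit. The last peak inside, in HPRT1 integrated replicate 1, had its summit 29926 bp from the right end of chromosome V with a fold of 3.25, and the first outside, 30007 bp from the same end in HPRT1R YAC replicate 2, had a fold of 3.02. Here the fold is the authors' own value, the summit pileup over the pileup expected by the caller, and it depends on the library, so that folds of different libraries are given to describe them and strength is read from the percentile among the native peaks of the same library. Within 500 bp inside the limit each library had 2 or 3 peaks, with a median percentile of 27.3 to 80, and within 500 bp outside it 1 to 3, with a median percentile of 62.5 to 82.4.

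The peaks that were found near ends were weaker, narrower and less often at gene starts than interior ones. Their median fold stood at percentile 32.1 ± 2.19 of the native peaks, against 50.6 ± 0.181 for interior peaks. Their median width was 496 ± 23 bp against 625 ± 50.6 bp. The summit lay within the 500 bp after a gene start for 50.3% ± 4.45 of them, against 67.1% ± 4.63 of interior peaks (SD, n = 8 for each value). Each of the 3 differences ran the same way in 8 of 8 libraries (exact sign-flip permutation p = 0.00781, adjusted p = 0.00781 each). The median read pileup at the summit was 152 to 175 near ends and 183 to 205 in the interior. Strength also rose inward: the libraries' median percentile averaged 14.5 within 5 kb of the end, 16.2 from 5 to 10 kb, 26.2 from 10 to 15 kb, 35.3 from 15 to 20 kb and 40.4 from 20 to 25 kb. Still, 5 to 7 near-end peaks per library ranked in the top 10% of native peaks.

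**Figure D2:**
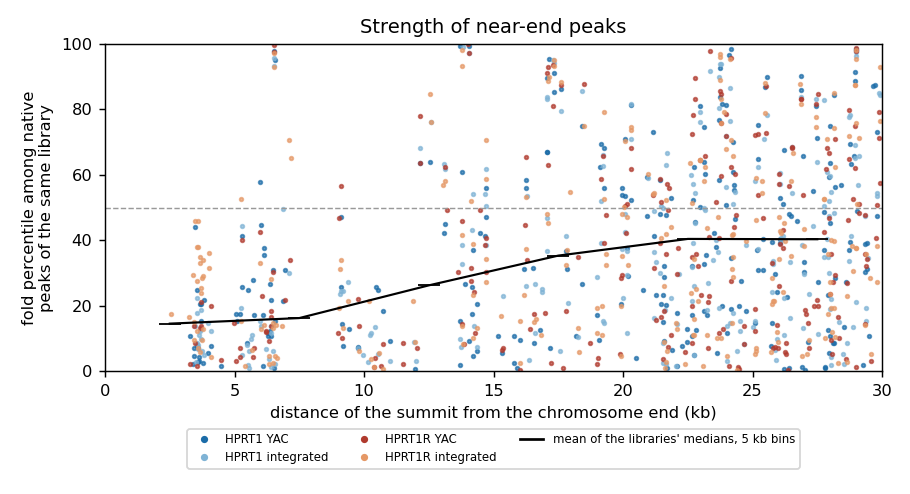
Percentile of each near-end peak's fold among the native peaks of its own library (y axis) against the distance of its summit from the chromosome end (x axis, kb); points are single peaks coloured by group, and the black line joins the means over libraries of the median per 5 kb bin. The line rises from 14.5 in the outermost bin to 40.3 in the bin from 25 to 30 kb; the tight group of high points at 6.54 kb is 1 place on chromosome XII seen in 8 libraries.

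In 7 of 8 libraries near-end peaks were found again in the other replicate less often than interior ones: 72.3 to 95.9% near ends and 90.4 to 96.6% in the interior, a difference that was not tested. HPRT1R YAC replicate 1, the shortest list, was the exception, with 95.9% near ends and 94.1% in the interior. Joined over libraries, the near-end peaks formed 170 regions, of which 76 had a peak in all 8 libraries and 26 in only 1. Of the 41 regions with a summit within 10 kb, 8 were in all libraries, against 51 of the 85 between 20 and 30 kb.

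Genes near ends mostly lacked the mark. A gene counted as marked when 1 bp or more of the stretch between 200 bp upstream and 500 bp downstream of its annotated start lay under a peak. Of the 377 near-end genes, 85 (22.5%) were marked in all 8 libraries, where the share over all 6002 genes was 66.5%. In no library were 237 (62.9%) marked, against 14.8% of all genes. The remaining 55 were marked in 1 to 7. Per library, 29.2% ± 1.42 of near-end genes and 80.7% ± 1.79 of interior genes were marked (SD, n = 8 each; lower in 8 of 8 libraries, exact sign-flip permutation p = 0.00781, adjusted p = 0.00781). Without HPRT1R YAC replicate 1, 88 genes were marked in all remaining libraries, and without HPRT1 YAC replicate 2, 86. The count depends on the rule: with a summit required within the 500 bp after the start, 20 near-end genes (5.31%) and 959 interior genes (17%) had the mark throughout, and the difference in the share of marked genes was -28.4 in place of -51.5 percentage points (exact sign-flip permutation p = 0.00781).

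By distance, 0 of 39 genes within 5 kb were marked in all 8 libraries, 2 of 74 from 5 to 10 kb, 7 of 69 from 10 to 15 kb, 11 of 54 from 15 to 20 kb, 29 of 72 from 20 to 25 kb and 36 of 69 from 25 to 30 kb. Thus 65 of the 85 lay in the inner 10 kb of the zone. Of the genes read toward the end 42 of 205 were marked in all libraries, and of those read toward the centromere 43 of 172, a difference that was not tested. Genes with a standard name, which stands here for some earlier characterisation, were marked in all libraries in 72 of 263 cases and those without one in 13 of 114. In the interior these were 3562 of 4994 and 344 of 631, so that both shares were lower near ends.

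**Figure D3:**
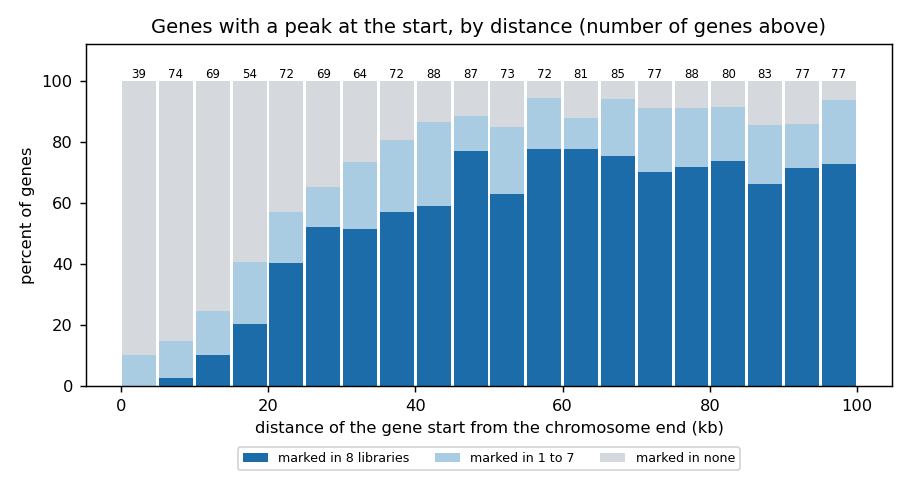
Percent of protein-coding genes (y axis) marked in all 8 libraries (dark), in 1 to 7 (light) and in none (grey), by distance of the gene start from the chromosome end (x axis, kb, bins of 5 kb over 32 ends); the number of genes stands above each bar. The dark share is 0 in the outermost bin, 52.2% from 25 to 30 kb and 77% from 45 to 50 kb.

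The families typical of subtelomeres were almost without peaks at their starts. Of 18 gene lists examined, 16 were of families or functions known from subtelomeres and the others were of silencing and COMPASS genes. The 16 held 109 near-end genes, of which 6 had the mark in all 8 libraries and 93 lacked it in every one (5.5% and 85.3%, beside 22.5% and 62.9% of all near-end genes). Members of the same lists in the interior also often lacked the mark: of 50 such genes, 12 had it in all 8 libraries and 27 in none (54%, beside 11.6% of all interior genes). The COS genes, which encode membrane proteins of endosomal sorting, were marked in 0 of 11 cases in any library. Of the near-end seripauperin genes (PAU1, PAU3 and 17 others), small cell wall mannoproteins, 0 of 19 were marked in any library. Of the 11 seripauperin, DAN and TIR genes that lie in the interior, 10 had no peak in any library either.

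Among the sugar genes, MAL12, MAL32 and IMA1, for maltose and isomaltose breakdown, and 10 other genes of their list had no peak at the start in any library, and MAL13, the activator gene of its maltose locus, had 1 in a single library (fold 1.44). The 7 near-end hexose transporters (HXT8, HXT9, HXT11, HXT13, HXT15, HXT16 and HXT17) were unmarked throughout. Of the 12 interior genes of this list, which includes SUC2 and the glucose sensors, 1 had the mark throughout and 7 never did. Likewise 0 near-end members were marked in any library among the flocculins FLO1, FLO9 and FLO10, the sorbitol and mannitol dehydrogenases (4 genes), the thiamine and pyridoxine genes (8), the HSP31 family (4), the formate, enolase-related and DAK genes (5) and the phosphate genes PHO11, PHO12, PHO84 and PHO89. AAD14, an aryl-alcohol dehydrogenase gene, had a peak in 2 libraries and its 4 relatives in none. VTH1 and VTH2, a near-identical pair related to the vacuolar sorting receptor, had 1 library each.

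Many of these families consist of near-identical copies. How reads with several matches were treated in the mapping is not given in the sources used here, and no sequence was at hand to tell repeated from single-copy starts, so that the part of mapping in these counts was not tested. Outside the listed families, 79 of 268 near-end genes had the mark throughout and 144 never did, against 3894 and 623 of 5575 interior genes. Leaving the families out moved the difference in the share of marked genes from -51.5 to -43.5 percentage points (lower in 8 of 8 libraries; exact sign-flip permutation p = 0.00781).

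Iron uptake was the listed group with most marked genes near ends. ARN1, ENB1 and SIT1, which encode transporters of iron-siderophore complexes, were marked in all 8 libraries at 21, 21.3 and 27.7 kb from the ends of VIII left, XV left and V left. Folds at ARN1 ran from 1.85 through a median of 2.22 to 2.53, and at ENB1 from 1.93 through 2.23 to 2.41. At SIT1 they were lower, from 1.59 through 2.08 to 2.27. These peaks were not of the transporter genes alone. SIT1 had the same fold as its neighbour HPA3 in all 8 libraries. ARN1 had the same fold as the oppositely read EFM1 in all but HPRT1 YAC replicate 2. The related ARN2, at 10.2 kb, was marked in 5 libraries (fold 1.47 to 1.74) and the low-affinity iron transporter gene FET4, at 9.89 kb, in 2. GEX1, GEX2, FRE2, FRE5 and FIT1 were marked in none. Thus 3 of 10 near-end members were marked in all libraries, beside 22.5% of all near-end genes, and 5 of 12 members in the interior; no difference between these shares was tested. BIO2, the biotin synthase gene at 26 kb on VII right, was also marked in all 8 (fold 1.43 to 2, median 1.89).

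The silent mating cassettes lie within the zone, HML on III left and HMR on III right. HMLALPHA1 and HMLALPHA2 had no peak at the start in any library. HMRA1 and HMRA2 shared a peak in all 8, with a fold of 1.46 to 2.46 (median 1.93). In the annotation used, the mating-type locus itself carries MATALPHA1 and MATALPHA2, which had no peak in any library either, and no a-type copy. BY4741 carries the a allele there, so that reads of its a-specific sequence have HMR as their place in this reference, and a mark at HMR and one at the expressed MAT locus cannot be told apart. The alpha genes stand in this reference both at HML and at the mating-type locus. How reads with several matches were treated is not given. A lack of the mark at HML and a loss of such reads therefore cannot be told apart either. SIR1, a silencing gene that itself lies 26.3 kb from the right end of XI, was marked in 7 libraries (fold 2.01 to 2.75). The oppositely read SKG1 had the same fold in the 6 libraries that marked it, so that this peak was not of SIR1 alone.

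The outermost peaks lay in the Y′ elements. Y′ elements carry the YRF1 genes, which encode helicase-like proteins, and relatives of them, some of them shortened. Of the 17 regions with a summit within 5 kb of an end, 8 lay in YRF1 genes (7 of the 8 genes), 8 in the genes YEL077C, YFL066C, YHL050C, YIL177C, YJL225C, YML133C, YPR202W and YPR204W, and 1 in no gene. The regions in YRF1 genes had their nearest summits 3.29 to 4.07 kb from the end, inside the gene and away from its start. All 17 were weak, with mean folds of 1.41 to 1.88, and 1 of them was found in all 8 libraries. HPRT1R YAC replicate 1 had none, while the other libraries had 7 to 15 peaks in this stretch. At their starts, YRF1-3 and YRF1-7 were marked in 4 YAC libraries and 1 integrated library each, YRF1-6 in 3 and 1, YRF1-4 in 1 integrated library and the other 4 in none. Of these, YRF1-1, YRF1-5 and YRF1-8 had an upstream peak in all 8 libraries, which ended before the start window. The region at YRF1-3 was also found in all 8, and that at YRF1-7 in 4 YAC and 3 integrated libraries, but not every peak reached the window. The region at YRF1-6 was found in 3 and 1. The counts at YRF1-3 and YRF1-7 thus depend on the window's edge. The copies of Y′ are near-identical, so that a peak cannot be assigned to one of them with certainty.

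The strongest signal within 10 kb of an end also lay among Y′ copies. It occupied positions 1071448 to 1072271 of chromosome XII, between YRF1-4 and YRF1-5, 6.53 to 6.55 kb from the right end, in no gene. Its fold was 3.54 and 3.19 for HPRT1 YAC, 3.76 and 3.75 for HPRT1 integrated, 3.5 and 3.78 for HPRT1R YAC, and 3.63 and 3.41 for HPRT1R integrated libraries. Its percentile was 93 to 99.8 in all 8, and 286 to 348 reads were piled up at the summit against 76.2 to 98.9 expected. The groups overlapped. The place was singled out after its values were seen, and because the flanking sequence is repeated, its level is uncertain.

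By the overlap rule, genes marked in all 8 libraries in spite of their place were found on 22 of the 32 ends. With the summit rule, which left 20 such genes, the ends were not counted again. The closest marked gene of all, and the single end with one under 10 kb, was YPR202W on XVI right, 5.03 kb from the end (943032 to 943896). It is a Y′-related open reading frame, and its fold was 1.67 to 2.25 with a median of 1.77. Because Y′ copies are near-identical, its peak cannot be assigned to it with certainty. The nearest summit over the libraries lay at 4.98 kb. In the HPRT1 YAC libraries the summits lay 5289 and 5274 bp from the end, upstream of the start window, which the flank of the peak overlapped. On the same end ARR1, the gene for the activator of arsenic resistance, was marked at 9.03 kb (938148 to 939032). ARR1 had folds of 1.99 and 1.74 for HPRT1 YAC, 1.9 and 1.87 for HPRT1 integrated, 1.93 and 2.11 for HPRT1R YAC, and 1.94 and 1.91 for HPRT1R integrated libraries. Its groups overlapped. ARR1 was named after its values were seen.

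On 10 further ends the closest gene marked in all libraries lay between 10 and 20 kb. These genes are named here after their values were seen. ADH6, an NADPH-dependent alcohol dehydrogenase gene, was the outermost, 12.3 kb from the end of XIII right, with folds of 2.2 to 2.95 and a median of 2.5. ERO1, which encodes the oxidase that drives disulphide formation in the endoplasmic reticulum, followed at 13.2 kb on XIII left (fold 1.85 to 2.63, median 2.31). Next inward lay YHR214C-B at 13.3 kb on VIII right, the mannosyltransferase gene MNT2 at 14.2 kb on VII left and the reading frame YER186C at 14.2 kb on V right. At MNT2 the summits lay 14.5 to 14.7 kb from the end, upstream of its start window, which the flank of the peak overlapped. DLD3, a D-lactate dehydrogenase gene, lay at 16.4 kb on V left and had the lowest folds of the 10 (1.5 to 2.09). HYR1, a peroxidase that senses hydrogen peroxide, lay at 16.8 kb on IX right. It shared its peak with the oppositely read IRC24, whose start at 17 kb lay nearer the summit. VAC17, an adaptor for vacuole inheritance, lay at 17.3 kb on III left. RPN12, a subunit of the proteasome's regulatory particle, lay at 17.7 kb on VI right (fold 2.4 to 3.17, median 2.88), and RPD3, a histone deacetylase gene, at 19.3 kb on XIV left (fold 1.75 to 2.72, median 2.38).

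On 11 ends the closest such gene lay between 20 and 30 kb, and 10 ends had none: I left and right, IV right, VI left, IX left, X left and right, XI right, and XII left and right. Over the 22 ends with one, the median distance was 20.1 kb.

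**Figure D4:**
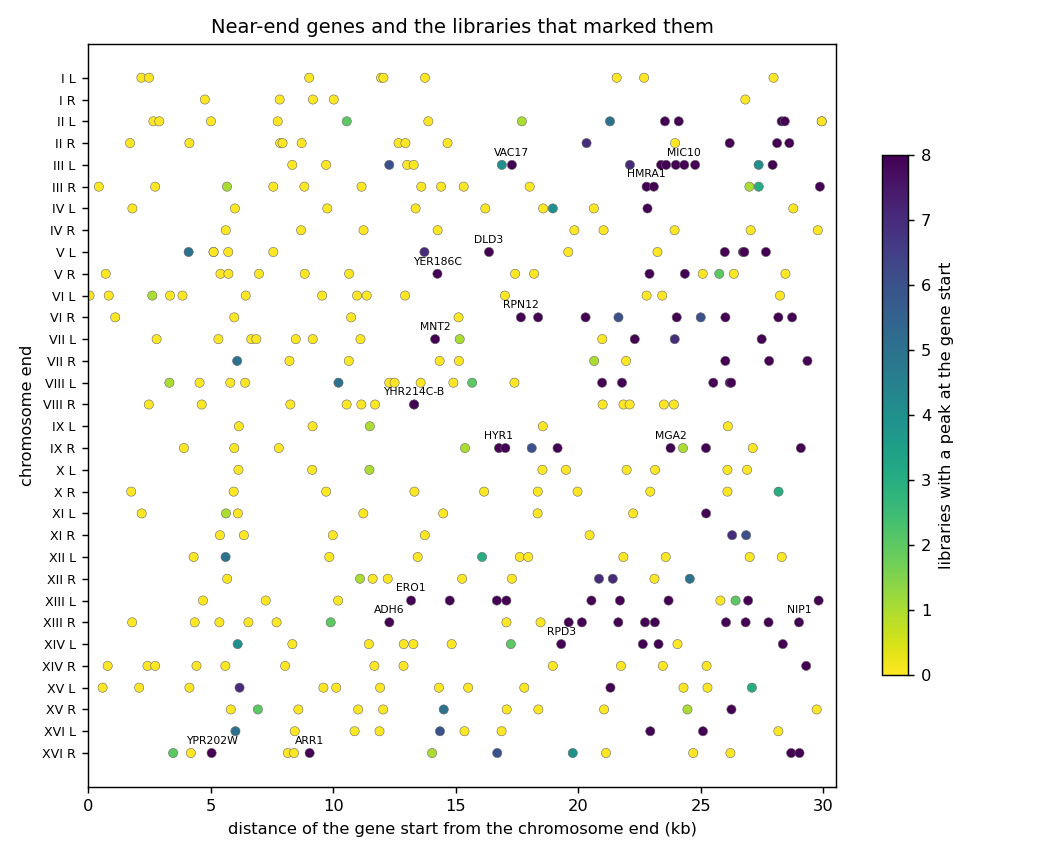
Each point is a protein-coding gene placed by the distance of its start from the chromosome end (x axis, kb) on its end (y axis; L, left; R, right), coloured by the number of libraries, from 0 to 8, with a peak at the gene start; some marked genes are named. Left of 10 kb the genes marked in 8 libraries are YPR202W and ARR1 on XVI right, most others lie beyond 20 kb, and 10 ends have no gene marked in 8 libraries.

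Ranked by mean percentile and counting genes of 1 shared peak once, the 85 genes stood for 69 different sets of peaks. First came YHR214C-B on VIII right (543964 to 549346), the Gag-Pol reading frame of a Ty1 retrotransposon, whose peak it shares with YHR214C-C. It had folds of 3.43 to 4.31 with a median of 3.85, at percentile 98 ± 2.1 (SD, n = 8). Ty1 is present in many copies, so that this value is uncertain. NIP1 on XIII right (892988 to 895426), which encodes a subunit of translation initiation factor 3, stood at percentile 97.6 ± 1.22 (SD, n = 8), with folds of 3.11 to 4.25 and a median of 3.73. It had the highest mean among genes that are not transposon genes.

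Next came a peak on III left at 24.3 kb, shared by MIC10, KRR1, ADF1, FYV5 and PRD1. Its fold was 2.9 to 3.66 with a median of 3.39, in the middle of a dense group of genes, among them KRR1 for assembly of the small ribosomal subunit and MIC10 for the inner membrane folds of mitochondria. VAC17 followed (percentile 91 ± 5.25) and then MSC1 with its neighbour RSC9, a subunit gene of the chromatin remodeller RSC, on XIII left (percentile 89.4 ± 4.2; SD, n = 8 each). MGA2, an activator of the fatty acid desaturase gene, on IX right, varied more, with folds of 1.96 to 3.8 around a median of 3.28; the lowest was in HPRT1R YAC replicate 1.

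The other 6 of the 12 strongest stood at mean percentiles of 74.7 to 84.9. They were UPA2 with GLC8, a regulator of protein phosphatase 1, and RET2, a coatomer subunit, with RPN12. CBP2, needed for splicing in mitochondria, and RTG3 with SFT2 followed. RTG2, which like RTG3 serves signalling from mitochondria to the nucleus, and NDI1, the internal NADH dehydrogenase of mitochondria, closed the list. Most of the 12 lay beyond 20 kb, and 4 did not: YHR214C-B, VAC17, MSC1 and RET2, between 13.3 and 18.4 kb.

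The ends differed among themselves more than most of them did across libraries. The mean number of peaks in the outer 30 kb ran from 0.375 on X right to 10.4 on XIII right, with a median over ends of 4. At interior density 30 kb would hold 9.84 peaks, and XIII right alone lay above that. The SD between the 32 means was 2.4, while the largest SD over libraries within one end was 2.12, on XII left. Nearly as rich as XIII right was XIII left, with 8.62 ± 1.6 peaks, and VI right, V right and IX right followed at 7.12 ± 0.991, 6.25 ± 1.16 and 6 ± 0.756 (SD, n = 8 each). Under 2 peaks on average were found on 9 ends.

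On XIII right, 10 of 18 genes were marked in all libraries, and on XIII left 9 of 14. Together with III left and VI right (7 each), IX right (6) and 1 of the ends with 5, these ends held 44 of the 85 genes. The opposite case was VI left, with 0 to 1 peaks and 13 of its 14 genes unmarked in all libraries, across the chromosome from VI right, where 7 of 13 were marked in all 8. X right had 0 or 1 peak, and in its median library the first peak lay 39.9 kb from the end.

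Over the 32 ends the distance to the first peak, taken as the median of the libraries, ranged from 3.48 to 39.9 kb with a median of 9.84 kb. On 10 ends it was under 5 kb and on 8 it was 20 kb or more. IV right, where it was shortest, had 2.12 ± 0.641 peaks (SD, n = 8) and no gene marked in all libraries. On XII left the count moved most between libraries, at 5 and 5 in HPRT1 YAC, 4 and 0 in HPRT1 integrated, 0 and 3 in HPRT1R YAC, and 4 and 1 in HPRT1R integrated libraries, so that replicates differed by up to 4 peaks.

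**Figure D5:**
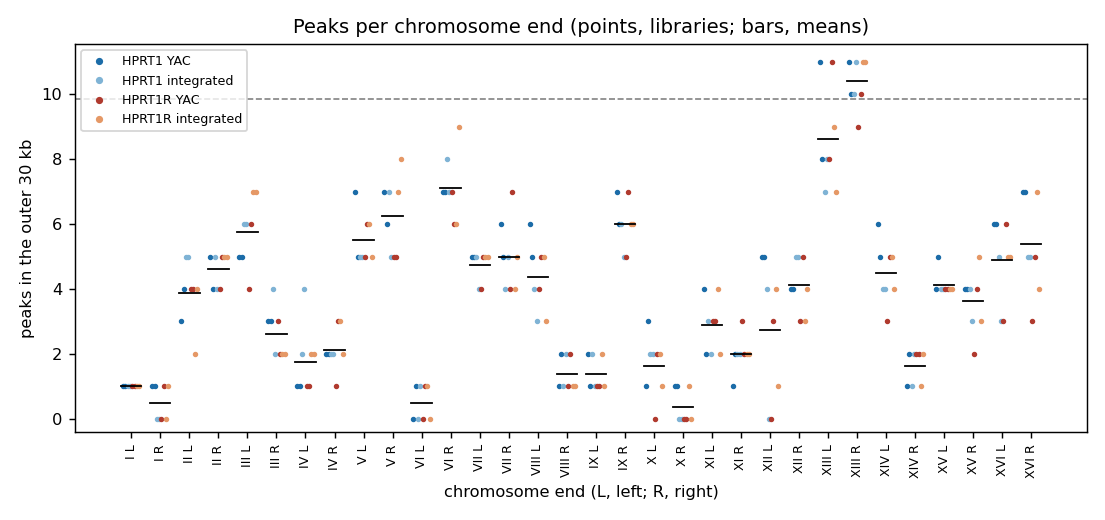
Number of peaks in the outer 30 kb (y axis) for each of the 32 chromosome ends (x axis; L, left; R, right); points are the 8 libraries coloured by group, horizontal bars are their means, and the dashed line is the 9.84 peaks that 30 kb would hold at interior density. Only XIII right has its mean above the line. I left has 1 peak in every library, and I right, VI left and X right have 0 or 1.

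Of the 76 regions found in all libraries, 9 overlapped no gene's start window. They included the place on XII right above, a region inside the flocculin gene FLO9 on I left (24071 to 24655, mean fold 1.79 ± 0.301; SD, n = 8) and a stronger one in HPF1, a cell wall mannoprotein gene, on XV left (28738 to 29408, mean fold 2.73 ± 0.351; SD, n = 8). JEN1, the lactate transporter gene, and YMR317W each held 1 such region within the gene. The FLO9, HPF1, JEN1 and YMR317W regions were chosen after their values were seen.

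A difference in the depletion between the study's groups was not detectable. The ratio of near-end to interior density was 0.388 ± 0.0309 for the YAC libraries and 0.382 ± 0.0124 for the integrated ones (SD, n = 4 each), so that YAC minus integrated was 0.00632 (95% interval -0.053 to 0.0418) (exact two-sided permutation test, p = 0.743, adjusted p = 0.857 over 4 tests; smallest possible p = 0.0286). HPRT1R libraries had a ratio of 0.375 ± 0.0271 and HPRT1 libraries 0.394 ± 0.0124 (SD, n = 4 each), so that HPRT1R minus HPRT1 was -0.0192 (95% interval -0.066 to 0.0272) (exact permutation p = 0.257, adjusted p = 0.857). The lowest ratio, 0.342, was that of HPRT1R YAC replicate 1.

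The share of near-end genes that were marked was 29.4% ± 1.76 for the YAC libraries and 29% ± 1.23 for the integrated ones (SD, n = 4 each), apart by 0.332 points (95% interval -3.45 to 2.66) (exact permutation p = 0.857, adjusted p = 0.857). It was 28.8% ± 1.82 in HPRT1R and 29.6% ± 1.03 in HPRT1 libraries (SD, n = 4 each), apart by -0.729 points (95% interval -3.72 to 2.39) (exact permutation p = 0.6, adjusted p = 0.857). On the host chromosome of the integrated strains, XI left had 4, 2, 3 and 3 peaks in YAC and 3, 2, 4 and 2 in integrated libraries, and XI right 1, 2, 3 and 2 and 2, 2, 2 and 2.

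Of the near-end genes, 2 were marked in all 4 integrated libraries and in no YAC library, CHA1 and YDL242W. Over all genes, 0.3% met that rule. In the other direction, marked in all 4 YAC and no integrated library, there were 0 near-end genes, against 0.15% of all genes. Between HPRT1R and HPRT1 the same rule gave 0 genes in either direction, near ends and over the genome (0% each).

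CHA1, the serine and threonine deaminase gene on III left (15798 to 16880), starts next to the oppositely directed VAC17 (17290 to 18561). The main summit lay at the start of VAC17 in all 8 libraries, with folds of 2.59 to 2.96 in YAC and 3.29 to 3.9 in integrated libraries. Folds of YAC libraries were lower in general, with an interior median of 2.04 ± 0.124 against 2.26 ± 0.0854 (SD, n = 4 each). As percentiles within the library the VAC17 peaks overlapped between the groups, at 80.9 to 93.6 in YAC and 93.3 to 95.2 in integrated libraries. In integrated libraries the peaks reached toward CHA1 and covered 206 to 540 bp of its start window. In HPRT1R integrated replicate 1 this was by a peak of its own with a fold of 1.68, to which the shared peak added 28 bp. In the other 3 it was by the wider shared peak. YAC peaks ended short of that window, but in the HPRT1R YAC libraries, where they began at 17086 and 17089, only by a few bp. YDL242W, a reading frame on IV left 19 kb from the end, had folds of 1.76 and 1.7 in HPRT1 integrated and 1.61 and 1.74 in HPRT1R integrated libraries, all below percentile 20.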

How the data were processed

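H3K4me3 CUT&RUN peak lists of 8 yeast libraries were used, 1 list per sample. The submitters' processing notes name MACS2 2.1.0, deepTools 3.5.0, SAMtools 1.9, Bowtie2 2.2.9, bcl2fastq 2.20 and the build sacCer3. Caller settings, the control and how reads with several matches were treated: not given in the sources used here. The deposited columns hold, per peak, the authors' ratio of summit to expected pileup (the fold), −log10 values of p and q, and a score that is 10 times the −log10 q cut to a whole number. No list was identical to another.

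Chromosome lengths were the standard sacCer3 ones, entered by hand, and 0 peaks and 0 annotated genes ran past them. Gene positions were read from a RefSeq table (assembly R64, the assembly that sacCer3 names), with strands from systematic names; 6002 nuclear protein-coding genes were used. Distance was taken from the summit or the gene start to the nearer end. Whole-number pileups were solved from fold and p-value, assuming a Poisson tail, for 99.7 to 99.9% of native peaks within 0.01 in −log10 p. Exact sign-flip tests ran over 8 libraries and exact permutation tests over 4 against 4, with Benjamini-Hochberg adjustment over 8 and over 4 tests. The density script recovered known ratios on simulated data. Python 3.11.15, numpy 2.4.6, pandas 2.3.3 and scipy 1.17.1 were used.

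Members, lists and tests were chosen with earlier results of these data known. Genes were named by this rule: the closest gene marked in all 8 libraries where under 10 kb from its end; the 12 highest by mean percentile, 1 per shared peak; near-end members of the lists; and genes marked in all 4 libraries of one group and none of the other. Other genes named share a peak with a named gene or are said to be chosen after their values were seen. No sequence was used.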

Additional observations from a re-analysis of the deposited data

Results flagged for a closer look

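HPRT1R YAC replicate 1 lay apart from the other libraries on 3 measures of the near-end zone. Its coverage of near-end bases, 6.31%, was farther below the other 7 libraries than their spread allows by Dixon's 95% criterion. Among the 4 YAC libraries its median near-end peak width, 530 bp, was the highest, and its ratio of near-end to interior density, 0.342, the lowest, both by the same criterion. Of 50 groups of values examined 3 were flagged, and chance flags about 1 in 20 groups. The same library had the fewest native peaks, 3377, and the highest genome-wide expected pileup, 98.9 reads; the part of these in its near-end values was not tested.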

How the results depend on the processing

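The 8 comparisons of near-end with interior peaks kept their direction and passed the threshold under every alternative run for them: zones of 20 and 40 kb, no outer 5 kb, a −log10 q of at least 5, equal numbers of peaks per library, ends at the last gene or peak, other rules for marked genes, genes outside the listed families, genes with a standard name (added after seeing the data) and peaks shared with the replicate. Leaving out 1 library, the density difference was -2.03 to -2 per 10 kb and the difference in marked genes -52.1 to -51.1 points, each with an exact permutation p = 0.0156, the smallest possible. The count of near-end genes marked in all libraries was 20 with the summit rule.

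The YAC-integrated differences, which passed no threshold, changed sign. For the density ratio the value was -0.009 with a 20 kb zone, -0.00917 with −log10 q of at least 5 and -0.000924 with equal numbers of peaks, and -0.000391 to 0.0216 leaving out 1 library. For the share of marked genes it was -0.244 with a 40 kb zone, -0.332 with −log10 q of at least 5, -0.597 with the summit rule and -1.53 with 50% of the window under peaks, and -0.0663 to 1.19 leaving out 1 library. The causes of these changes of sign were not tested. The HPRT1R-HPRT1 differences stayed negative in every setting and passed no threshold. For the density ratio the smallest exact permutation p was 0.0571. It was reached with −log10 q of at least 5 (-0.0259) and with equal numbers of peaks (-0.0191).

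Nothing in the labels pairs the replicate numbers, and deviations of same-numbered libraries correlated at -0.138 to 0.0833 between groups. With the replicate number as a block, the exact permutation p was 0.833 and 0.333 for the density ratio (YAC-integrated 0.00632, HPRT1R-HPRT1 -0.0192) and 0.889 and 0.667 for marked genes (0.332 and -0.729). Restriction to genes with single-copy sequence was not run, as no sequence was used. Where no peak was called, depth is unknown.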
